A study of Homo sapiens with 6 samples.

Results

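The genes described here encode the proteins of the mitochondrial ribosome, and their mRNAs were followed in K562 cells, a human leukemia line, that had been transfected with siRNAs against αCP1 and αCP2 or with control siRNAs. Members were chosen by name alone: a row of the deposited gene table was taken where its symbol was MRPL or MRPS followed by a number and at most a letter A, B or C. The rule took 77 rows, and MRPS17 had a second row that was at 0 in both groups and was not used. This left 76 genes of 57150. Of these, 49 encode proteins of the large subunit and 26 encode proteins of the small subunit. MRPS36 carries the family name but encodes a component of the 2-oxoglutarate dehydrogenase complex, and it was kept as the rule asked and described apart. MRPS18A and MRPS30 have small-subunit names, but their products sit in the large subunit and they were counted there.

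The study depleted αCP1 and αCP2, poly(C)-binding proteins encoded by PCBP1 and PCBP2, in 3 pools of K562 cells. Another 3 pools of the same line received control siRNAs. By the paper, each control pool received a different control siRNA, some of them against an unrelated mRNA. Some samples of both groups came from an earlier study of the same authors. RNA was taken 72 hours after transfection and sequenced as paired-end reads. The table gives each gene 1 FPKM value (fragments per kilobase of transcript, scaled to the number of mapped fragments) and 1 estimated count for each group, in columns that the deposited table labels KD (αCP1/2 siRNAs) and CTRL (control siRNAs). The libraries of a group are not separated, so no difference below has a replicate check, and no p-value was computed.

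Several facts of the whole table bear on every value below. The column totals were 13699340 estimated counts for KD and 11680567 for CTRL. In this table the siRNA targets did not follow the labels, although the paper reports that depletion was seen in both mRNA and protein. PCBP1 had an FPKM of 184 in the KD column and 188 in the CTRL column, a log2 ratio of -0.03, and PCBP2 had 531 and 342, a log2 ratio of 0.63. As shares of the column totals, their log2 ratios were -0.25 (95% interval -0.32 to -0.19) and 0.37 (0.32 to 0.42). Many markers of K562 cells were missing or low. Of 14 listed, GATA1, HBZ, KLF1 and TAL1 were at 0 in both columns. In both columns 7 of the 14 were under an FPKM of 1 and 2 were over 5. The embryonic globin gene HBE1 was at 153 and 35.4. The summed FPKM of the 14 was 303 in the KD column and 111 in the CTRL column. Of 7 epithelial markers, 3 were over 5 and 3 were under 1 in both columns, and the keratin gene KRT8 was at 1505 and 819. Of 4 mesenchymal markers, 1 was over 5 and 1 was under 1 in both columns. All 6 markers of other blood cells were under 1. The part of these markers in the results below was not tested, and the KD and CTRL columns are therefore called by their labels only.

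The mitochondrial ribosome translates the mRNAs transcribed from mitochondrial DNA, all of which specify subunits of the respiratory chain and the ATP synthase. Its RNAs come from the mitochondrial genome, but its proteins are encoded in the nucleus, made in the cytosol and imported. Many of them are homologs of proteins of bacterial ribosomes, and others arose in the mitochondrial lineage and coat the outside of the particle. Promoters of such genes often lack a TATA box and carry sites for ETS-family factors such as GABP, for NRF1 and for YY1.

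Promoter sequences show what the members share beside their names. RefSeq promoters (GRCh38.p14; 250 bases before to 50 after the annotated start) were found for 67 of the 76 genes, 1 promoter for each. The ETS-type letters CCGGAAG, read on either strand, were in 28 of the 67 (41.8%), against 20.5% of 8692 promoters of genes that passed the filter on expression and 10.7% of all 27305 promoters. The YY1-type letters AAGATGGC were in 20 (29.9%), against 5.87% and 3.03%. The NRF1-type letters GCGCANGCG were in 12 (17.9%), close to the 15.8% of genes past the filter and above the 8.05% of all promoters. The letters TATAAA were in 2 (2.99%), against 5.13% of genes past the filter, and the GC-box letters GGGCGG were in 41 (61.2%), against 71.5% of genes past the filter and 44.6% of all. At least 1 of the ETS, YY1 and NRF1 motifs was present in 45 members' promoters (67.2%), against 36.3% of genes past the filter. The ETS and YY1 motifs have the letters AAG in common, but in none of the 8 promoters with both did their matches overlap. A match is a description of letters and does not show that a factor binds.

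The YY1-type matches lay mostly just after the start. Of 21 matches, 15 began 6 to 35 bases after the annotated start, each in a different gene, and all 15 read in the direction of transcription. Such a match after the start was in 22.4% of the members' promoters and in 3.93% of those of genes past the filter. The place itself was not particular to the members. Among promoters with the letters, 15 of 20 members had a match after the start, and 342 of 510 genes past the filter did. The letters contain an ATG, and in 12 of the 15 genes that ATG was the start codon of at least 1 GENCODE transcript. The start codons of other genes with such a match were not checked, so the 12 have no background beside them. The sequences of 6 are shown as 30-base windows on the coding strand, with the motif in capitals. They are the 3 members with the highest mean FPKM and 3 of the 4 with the lowest log2 ratios. MRPL33, the lowest of those 4, has no YY1-type match. The 6 were picked by these ranks and do not stand for all 15. In MRPL51, MRPL20 and MRPL42 the ATG was not an annotated start codon.
MRPL51, chr12:6493223-6493252, minus strand: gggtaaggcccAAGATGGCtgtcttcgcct
MRPS24, chr7:43869480-43869509, minus strand: ccgcttggcccAAGATGGCggcctccgtgt
MRPL20, chr1:1407260-1407289, minus strand: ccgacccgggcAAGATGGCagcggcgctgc
MRPS18A, chr6:43687764-43687793, minus strand: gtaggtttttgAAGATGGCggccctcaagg
MRPL50, chr9:101398577-101398606, minus strand: ggatctcatcgAAGATGGCggcgcgatctg
MRPL42, chr12:93467511-93467540, plus strand: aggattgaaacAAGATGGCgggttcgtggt

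The ETS-type matches lay mostly just before the start. Of 37 matches, 27 had their centre within 50 bases of it, and 26.9% of the members' promoters had a match that began in the 50 bases before it, against 8.71% of genes past the filter. For 3 of the members with the highest log2 ratios and for MRPL33, the member with the lowest, the 80 bases before and 20 after the start are shown on the coding strand in GRCh38.p14, with ETS-type and YY1-type matches on either strand in capitals.
MRPL52, chr14:22829807-22829906, plus strand: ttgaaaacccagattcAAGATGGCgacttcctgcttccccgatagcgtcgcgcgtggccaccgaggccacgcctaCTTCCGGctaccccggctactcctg
MRPS12, chr19:38930864-38930963, plus strand: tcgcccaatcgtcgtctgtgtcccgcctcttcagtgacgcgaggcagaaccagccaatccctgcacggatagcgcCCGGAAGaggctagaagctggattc
MRPS21, chr1:150293781-150293880, plus strand: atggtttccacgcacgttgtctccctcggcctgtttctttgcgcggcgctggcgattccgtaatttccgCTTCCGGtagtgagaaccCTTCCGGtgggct
MRPL33, chr2:27771639-27771738, plus strand: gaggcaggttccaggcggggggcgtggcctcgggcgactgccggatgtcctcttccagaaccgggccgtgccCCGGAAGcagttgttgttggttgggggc

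**Figure D1:**
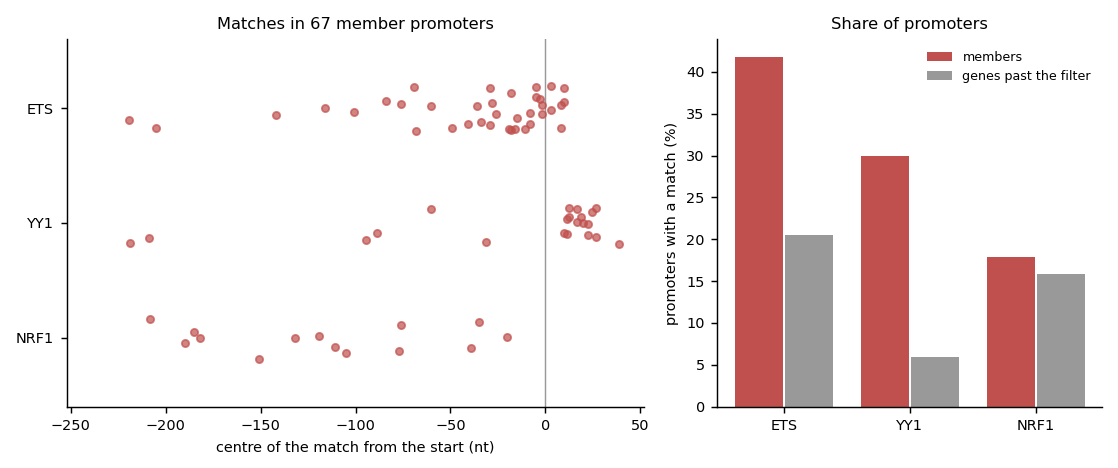
Positions of the ETS-type, YY1-type and NRF1-type matches in the promoters of 67 members (left; distance of the match's centre from the annotated start in nt, each point a match, vertical scatter for legibility) and the share of promoters with a match (right; percent of the 67 members and of 8692 genes past the filter). The YY1-type points crowd just to the right of the start, and the YY1-type bars are 29.9% against 5.87%.

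The mitochondrial ribosomal protein mRNAs were well expressed in both columns. All 76 had a mean FPKM of at least 1, the minimum for a gene to enter the comparisons. The median member was at an FPKM of 88.2 in the KD column and 67.7 in the CTRL column, against 10.9 and 10.5 over the 13741 genes past that minimum. The lowest estimated count of a member was 74 and the highest was 4025. The members together made up 0.713% of the summed FPKM in the KD column and 0.739% in the CTRL column. Of the estimated counts they made up 0.635% and 0.604%, so that the direction of their summed share depended on the scale. The cytosolic ribosomal proteins made up 21.6% and 16.4% of the summed FPKM.

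Levels differed widely between genes whose proteins, with few exceptions, are present in equal numbers in a ribosome. The highest FPKM of a member was 65.3 times the lowest in the KD column and 51.3 times in the CTRL column. MRPL51, a mitochondria-specific protein of the large subunit, was highest in both columns, at 644 and 643. It was followed by MRPS24 (326 and 253), a homolog of the bacterial small-subunit protein S3, and by MRPL20 (247 and 294), a homolog of bacterial L20. The next in the order of the mean were MRPL24 (323 and 217), MRPL9 (249 and 250.2), MRPL36 (344 and 134), MRPL3 (193 and 253) and MRPS34 (277 and 159.5). Of the 10 highest members in each column, 7 were in both lists.

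At the other end, MRPL50 was lowest by mean, at an FPKM of 9.87 in the KD column and 15.3 in the CTRL column. MRPL1, whose bacterial homolog forms the stalk beside the tRNA exit site, was at 15.9 and 17.3. MRPL44, which has a fold related to RNase III, was at 17.7 and 16.0, and MRPS31 was at 22.0 in both. MRPS36, the gene whose product is no ribosomal subunit, was at 19.4 and 15.0. Neighbours in these orders cannot be separated, since each value stands alone. Across the 76 genes the log2 FPKM of the columns had a Pearson correlation of 0.852 and a Spearman correlation of 0.819, a description over genes measured in the same pooled libraries.

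**Figure D2:**
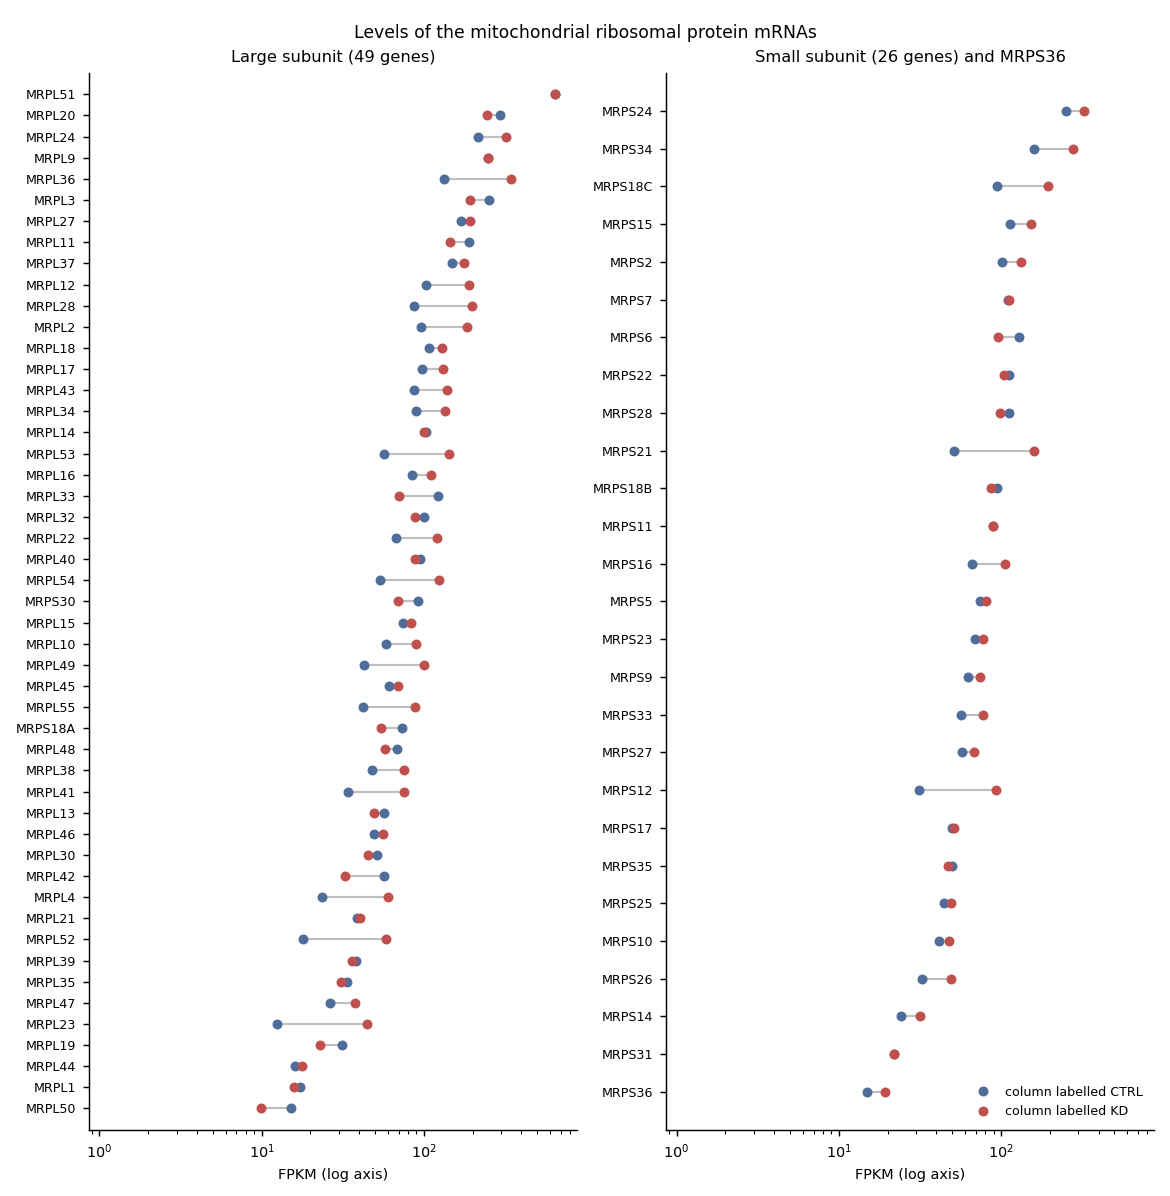
FPKM (log axis) of each member in the CTRL column (blue) and the KD column (red), for 49 large-subunit genes (left) and for 26 small-subunit genes with MRPS36 (right), ordered by the mean; a grey line joins the values of a gene. MRPL51 is at the top at 644 and 643 and MRPL50 at the bottom at 9.87 and 15.3, and the longest lines are those of MRPL23, MRPL52, MRPS21 and MRPS12.

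The members were shifted toward the KD column. Their median log2 ratio, computed as log2((FPKM in KD + 1)/(FPKM in CTRL + 1)), was 0.19 against 0.01 for all genes, and 51 were above 0 and 25 below. A log2 ratio of at least 0.5 was found for 24 members (31.6%), and for 22.6% of all genes past the filter. A ratio of -0.5 or less was found for 3 members (3.95%), against 16.1% of all genes. At the wider limit, 13 members (17.1%) were at 1 or more, against 8.51% of all genes, and none was at -1 or less, against 3.27%. The addition of 1 to the FPKM hardly changes ratios at these levels, which lay at 9.87 and above.

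MRPL23 (ENSG00000214026; chromosome 11, 1968508 to 2005752, plus strand, in GRCh37) had the highest log2 ratio, 1.75. Its FPKM was 44.4 in the KD column and 12.5 in the CTRL column, a 3.55-fold difference from 307 and 74 estimated counts. As a share of the column totals the log2 ratio was 1.82, with an exact binomial 95% interval of 1.45 to 2.21. Such intervals cover counting error only and not differences between pools. The bacterial homolog of MRPL23 lies at the mouth of the tunnel through which the new protein leaves the ribosome.

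MRPL52 (ENSG00000172590; chromosome 14, 23299088 to 23304246, plus strand) followed, at an FPKM of 58.6 in the KD column and 17.9 in the CTRL column. Its log2 ratio was 1.65, and the count share gave 1.43 (1.13 to 1.75). MRPL52 is a mitochondria-specific protein of the large subunit. The highest ratios of the small subunit were those of MRPS21 and MRPS12. MRPS21, a homolog of bacterial S21, was at 159.8 and 51.2, a log2 ratio of 1.62 with a count share of 1.26 (1.13 to 1.38). MRPS12 (ENSG00000128626; chromosome 19, 39421584 to 39423808, plus strand), whose bacterial homolog monitors codon and anticodon pairing at the decoding site, was at 93.3 and 31.2, a log2 ratio of 1.55 with a count share of 1.34 (1.16 to 1.54). For these 4 genes and for MRPL36 the counting interval stood wholly above 1.

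The other 9 members with a log2 ratio of 1 or more were 8 of the large subunit and MRPS18C. The homologs of bacterial large-subunit proteins among them were MRPL36 (344 and 134, log2 ratio 1.35), MRPL4 (60.3 and 23.5, 1.32) and MRPL28 (199 and 87.7, 1.18). The mitochondria-specific ones were MRPL53 (144 and 57.1, 1.32), MRPL54 (124 and 53.6, 1.19), MRPL49 (100.0 and 43.1, 1.19), MRPL41 (75.7 and 34.1, 1.13) and MRPL55 (88.0 and 42.1, 1.05). The count shares of these 8 were 0.75 to 1.13, and the lower bounds of their intervals were all above 0.5.

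MRPS18C was different. Its FPKM of 196 and 95.1 gave a log2 ratio of 1.04, but its 534 and 419 estimated counts gave a count share of 0.12 (-0.07 to 0.31). A unit of FPKM stood for 2.72 counts of MRPS18C in the KD column and for 4.40 in the CTRL column. Over all genes the FPKM ratio exceeded the count-share ratio by a median of 0.23, and it was over 0.25 away from that median for 5 members (6.58%), against 16.3% of all genes. The other 4 were MRPS36, MRPL42, MRPL51 and MRPL21. The ratio of MRPS18C is therefore uncertain in size.

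The 3 genes of the MRPS18 group, homologs of the bacterial small-subunit protein S18, went different ways. MRPS18B, which has a place of its own in the small subunit, was at an FPKM of 86.3 in the KD column and 94.1 in the CTRL column, a log2 ratio of -0.12. MRPS18A, which sits in the large subunit, was at 54.3 and 73.6, a log2 ratio of -0.43 with a count share of -0.71 (-0.87 to -0.55). MRPS18A was lower than its surroundings in another respect: in the GC quartile with the highest values it was the member with the lowest ratio.

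The lowest log2 ratios all lay above -1. MRPL33, a homolog of bacterial L33, was at an FPKM of 70.9 in the KD column and 122 in the CTRL column, a log2 ratio of -0.78. Its 257 and 479 counts gave a share of -1.13 (-1.35 to -0.91), the lowest of the members on that scale too. MRPL42 was at 32.8 and 56.6, a log2 ratio of -0.77 with a count share of -0.54 (-0.70 to -0.38). MRPL50 was at 9.87 and 15.3, a log2 ratio of -0.59 with a count share of -0.86 (-1.05 to -0.68). MRPL42 and MRPL50 are mitochondria-specific proteins of the large subunit, and by FPKM no small-subunit gene was at -0.5 or less. Next came MRPS18A, MRPS6 (95.5 and 129, log2 ratio -0.43, but a count share of -0.63 with an interval of -0.75 to -0.51), MRPL19 (23.0 and 31.2, -0.42), MRPS30 (69.5 and 92.5, -0.41) and MRPL3 (193 and 253, -0.39).

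Other members with known roles lay between these ends. MRPL12, the stalk protein that recruits translation factors, was at an FPKM of 190.5 in the KD column and 104 in the CTRL column, a log2 ratio of 0.87. MRPS2, a homolog of bacterial S2, was at 132 and 102, a ratio of 0.37, and MRPS28 was at 98.8 and 112, a ratio of -0.18. MRPS36 was at 0.35 by FPKM and at -0.24 (-0.53 to 0.06) by count share, so that its sign depended on the scale.

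The subunits had similar medians. The median log2 ratio was 0.19 for the 49 large-subunit genes, which ranged from -0.78 to 1.75, and 0.22 for the 26 small-subunit genes, which ranged from -0.43 to 1.62. By FPKM, 10 of the 49 (20.4%) and 3 of the 26 (11.5%) were at 1 or more, against 8.51% of all genes. By count share the percentages were 10.2% and 7.69%, against 6.92%. After the GC and length fit was subtracted they were 10.2% and 11.5%, against 5.25%. Which subunit had the larger share, and how far the small subunit stood above all genes, thus depended on the scale. The genes were also split by whether their protein has a site of its own in the mitochondrial ribosome, where MRPS18A and MRPS18B were counted, or the site of a bacterial homolog. By FPKM, 6 of 20 mitochondria-specific large-subunit genes and none of 10 mitochondria-specific small-subunit genes were at 1 or more. Of those with a bacterial counterpart, 4 of 29 and 3 of 16 were. By count share, in the same order, 2, 0, 3 and 2 genes were at 1 or more. With the GC and length trend removed, 2, 0, 3 and 3 were. The difference between these groups was not tested.

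**Figure D3:**
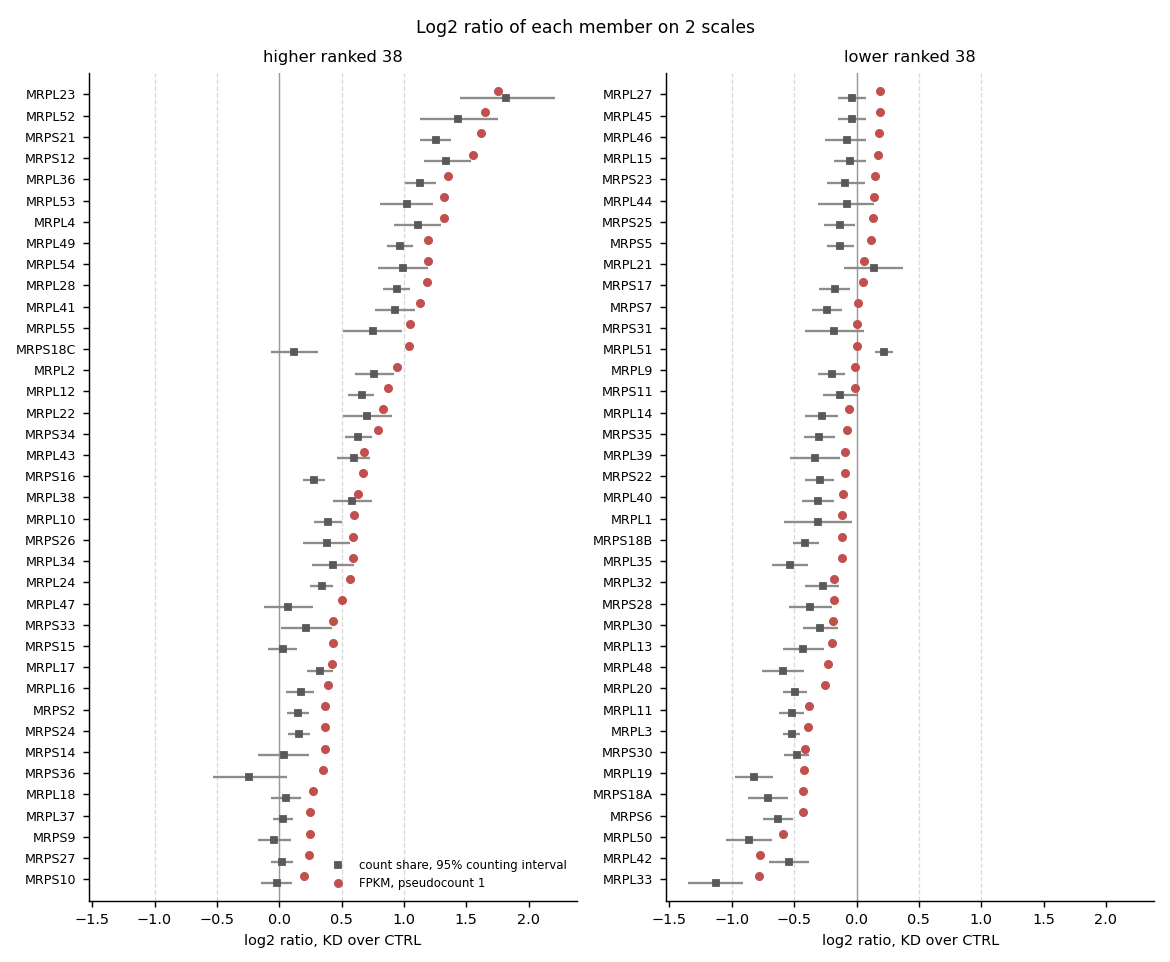
Log2 ratio of KD over CTRL for all 76 members, ordered by the FPKM ratio (red circles, pseudocount 1), with the ratio of count shares and its exact binomial 95% interval (grey squares and lines, counting error only); dashed lines mark 0.5 and 1 on either side of 0. MRPL23 heads the left panel at 1.75 and MRPL33 ends the right panel at -0.78, and MRPS18C is the gene whose square lies farthest to the left of its circle.

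On the scale of counts all genes lay lower, with a median of -0.21, and the members' median was -0.03, which is 0.18 above it. At 0.5 or more were 18 members (23.7%), against 17.6% of all genes, and at -0.5 or less were 10 (13.2%), against 31.7%. At 1 or more were 7 members (9.21%), against 6.92%, and at -1 or less was MRPL33 (1.32%), against 9.83%. The counting interval lay wholly above 0 for 29 members (38.2%), against 23.8% of all genes, and wholly below 0 for 28 (36.8%), against 43.7%. It included 0 for 19 members. Such intervals narrow as counts rise, and the members' median level was above that of all genes, so these shares also depend on depth. By their medians the members were above all genes on both scales, while the sign of their median depended on the scale.

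The log2 ratio moved with base composition. Across the members its correlation with the GC content of the annotated transcript was 0.60 (Pearson) and 0.58 (Spearman, n = 76), and across 13397 genes it was 0.42 and 0.45, in each case a description over genes that share the same libraries. In the lowest GC quartile of all genes (27.8 to 43.8%), 20 members had a median log2 ratio of -0.09, and all genes had -0.24. In the next quartiles the medians were 0.14 for 17 members and -0.13 for all genes, and then 0.17 for 22 members and 0.09 for all genes. In the highest quartile (56.6 to 74.7%), 17 members had a median of 0.87, and all genes had 0.48. Of those 17, 14 were at 0.5 or more (82.4%), against 48.4% of the genes of that quartile. MRPS21, at 48.3% GC, and MRPS18C, at 38.9%, reached 1 in the lower GC quartiles.

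The dependence on GC content and log2 transcript length, fitted as a quadratic over all genes, was then removed. The members' median was 0.21 with the trend removed, and their correlation with GC was 0.13. At 0.5 or more were 20 members (26.3%), against 17.5% of all genes, and at -0.5 or less were 2 (2.63%), against 14.7%. At 1 or more were 8 (10.5%), against 5.25%, and at -1 or less was none, against 3.42%. The ratio of MRPL41, the member with the most GC-rich transcript (66.7%), went from 1.13 to 0.22, that of MRPL12 from 0.87 to 0.15, and that of MRPL28 from 1.18 to 0.65. MRPS21 went from 1.62 to 1.70. At 1 or more on all 3 scales (FPKM, count share and trend removed) were 6 members (7.89%), against 3.50% of all genes: MRPL23, MRPL52, MRPS21, MRPS12, MRPL36 and MRPL53. At 0.5 or more on all 3 were 13 members (17.1%), against 11.3%. At -0.5 or less on all 3 was MRPL33 (1.32%), against 10.1%.

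**Figure D4:**
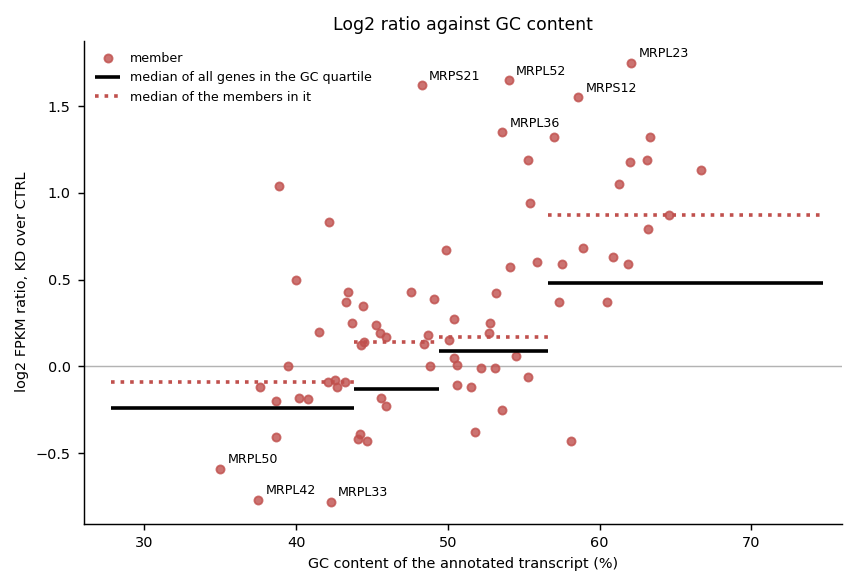
Log2 FPKM ratio of each of the 76 members (red points) against the GC content of its annotated transcript in percent, with the median of all genes past the filter in each GC quartile (black bars) and the median of the members in it (dotted red bars). The members' bars lie above the black bars in all 4 quartiles, by the most in the highest, where they are at 0.87 and 0.48.

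The promoter motifs and the ratios were set side by side. The 28 members with an ETS-type match had a median log2 ratio of 0.41 and the 39 without had 0.18, and 12 and 9 were at 0.5 or more. With the GC and length trend removed the medians were 0.23 and 0.19. The 20 members with a YY1-type match anywhere in the promoter had a median of 0.18 and the 47 without had 0.25, with 5 and 16 at 0.5 or more. For the 15 whose match lay after the start, a subset chosen after the positions and ratios were seen, the median was 0.01 with 2 at 0.5 or more, and for the other 52 it was 0.32 with 19. With the trend removed these medians were 0.05 and 0.26. The 41 members with a GC-box match had a median of 0.37 and the 26 without had 0.06, or 0.29 and 0.11 with the trend removed. For the 12 with an NRF1-type match and the 55 without, the medians were 0.25 and 0.19, or 0.33 and 0.15 with the trend removed. The median FPKM of the 15 with a YY1-type match after the start was 69.7 in the KD column and 67.5 in the CTRL column, and that of the 52 others was 94.4 and 71.9. Over all genes past the filter 22.6% were at 0.5 or more, and the ratios of other genes by motif were not computed. The differences between members with and without a match were not tested.

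Many of the genes lie close to others. In GENCODE, 16 of the 76 (21.1%) have a protein-coding neighbour on the opposite strand whose start is within 1000 bases and which is transcribed away from them, against 8.45% of 20175 protein-coding genes. MRPL46 and MRPS11, members of different subunits, start 63 bases apart, and their log2 ratios were 0.18 and -0.01. Of 5 members at a log2 ratio of 0.5 or more whose partner passed the filter, the partner was at 0.5 or more for 2 and below 0 for 1. All 5 pairs are given here. MRPS12 was at 1.55 while SARS2, the mitochondrial seryl-tRNA synthetase gene 181 bases away, was at an FPKM of 27.0 and 35.1, a log2 ratio of -0.37. MRPL36 was at 1.35 and its partner NDUFS6, a complex I subunit gene 41 bases away, was at 374 and 310.3, a ratio of 0.27. MRPL49 was at 1.19 and FAU, which encodes a cytosolic ribosomal protein from a start 6 bases away, was at 1787 and 1201, a ratio of 0.57. MRPL54 was at 1.19 and APBA3, 990 bases away, was at 10.2 and 3.96, a ratio of 1.18. MRPS18C was at 1.04 and HELQ, 77 bases away, was at 2.63 and 1.90, a ratio of 0.32. Of 14 pairs whose partner passed the filter, 8 had ratios of the same sign, with the pair MRPL46 and MRPS11 counted once from each side.

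The table puts 46 members in a locus with at least 1 other gene, and their median log2 ratio was 0.08, while the 30 members alone in their locus had 0.40. Over all genes the same split gave 0.01 and 0.04. The counting was not stated to use strand, so reads of overlapping genes may be exchanged, and the part of this in the members' values was not tested. The table also holds 66 rows for pseudogenes of 32 members, of which 54 were at 0 in both columns and 5 reached an FPKM of 1. MRPL45P2 was the highest, at 18.0 and 6.87, beside MRPL45 at 69.7 and 61.1.

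Companion genes of the mitochondrial translation system were described in the same way. Of 7 mitoribosomal proteins with other names, 3 were at a log2 ratio of 0.5 or more and none at -0.5 or less, with a median of 0.37. By count share the median was 0.16, and with the GC and length trend removed it was 0.05. At 0.5 or more were 42.9% of this small list, against 22.6% of all genes. GADD45GIP1, a large-subunit protein, was at an FPKM of 207 in the KD column and 52.1 in the CTRL column, a ratio of 1.97 that was above that of every member. MRP63, the lowest in level, was at 17.6 and 9.96, a ratio of 0.76, and the highest in level was AURKAIP1, at 231 and 150.0, a ratio of 0.62 that turned to -0.36 with the trend removed. PTCD3, a small-subunit protein, had the lowest ratio, -0.37 (13.7 and 17.9).

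Of 13 mitochondrial translation factors, 1 was at 0.5 or more (7.69%) and 1 at -0.5 or less, both below the shares of all genes, with a median of 0.02. TUFM, the elongation factor that brings aminoacyl-tRNA to the ribosome, was at 334 and 143, a ratio of 1.22, and the initiation factor gene MTIF2 was at 18.6 and 27.3, a ratio of -0.53. The lowest in level was the release factor gene MTRF1, at 8.10 and 7.36. Of 22 assembly factors, 7 were at 0.5 or more (31.8%, against 22.6% of all genes) and 1 at -0.5 or less, with a median of 0.28. By count share 3 were at 0.5 or more (13.6%, against 17.6%) with a median of -0.05, and with the trend removed 3 were (13.6%, against 17.5%) with a median of 0.21. The rRNA methyltransferase gene MRM1 was lowest in level and had the largest ratio, 0.82 (6.65 and 3.34). MALSU1 was at 95.6 and 54.9, a ratio of 0.79, but at -0.45 by count share. NGRN was highest in level, at 126 and 141.

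Of 17 genes for the upkeep and expression of mitochondrial DNA, 1 was at 0.5 or more (5.88%) and 2 at -0.5 or less (11.8%, against 16.1% of all genes), with a median of -0.16. HSD17B10, a subunit of mitochondrial RNase P, was at 433 and 205, a ratio of 1.07. POLG2, the accessory subunit of the mitochondrial DNA polymerase, was lowest in level at 6.51 and 11.5, a ratio of -0.74, and SLIRP was highest at 394 and 477. The median of this list was below that of the members on all 3 scales.

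The nuclear genes of the respiratory chain and ATP synthase and the cytosolic ribosomal proteins were shifted further in the same direction than the members. Of 76 respiratory chain genes past the filter (of 82 listed), 32 were at 0.5 or more (42.1%) and 3 at -0.5 or less, with a median log2 ratio of 0.40. NDUFA11 (418 and 75.1) had the largest ratio, 2.46, followed by NDUFB6 (38.4 and 7.05, 2.29), and ATP5B was highest in level at 2141 and 2745 and NDUFS1 lowest at 16.9 and 25.1. Of 79 cytosolic ribosomal protein genes, 54 were at 0.5 or more (68.4%) and none at -0.5 or less, with a median of 0.73. RPL28 (912 and 41.3) had the largest ratio, 4.43. RPL37 was highest in level at 17469 and 11269, and RPS28 lowest at 17.2 and 4.09. By count share the medians were 0.17 for the respiratory chain and 0.53 for the cytosolic ribosome. The members thus lay between all genes and these lists on both scales.

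**Figure D5:**
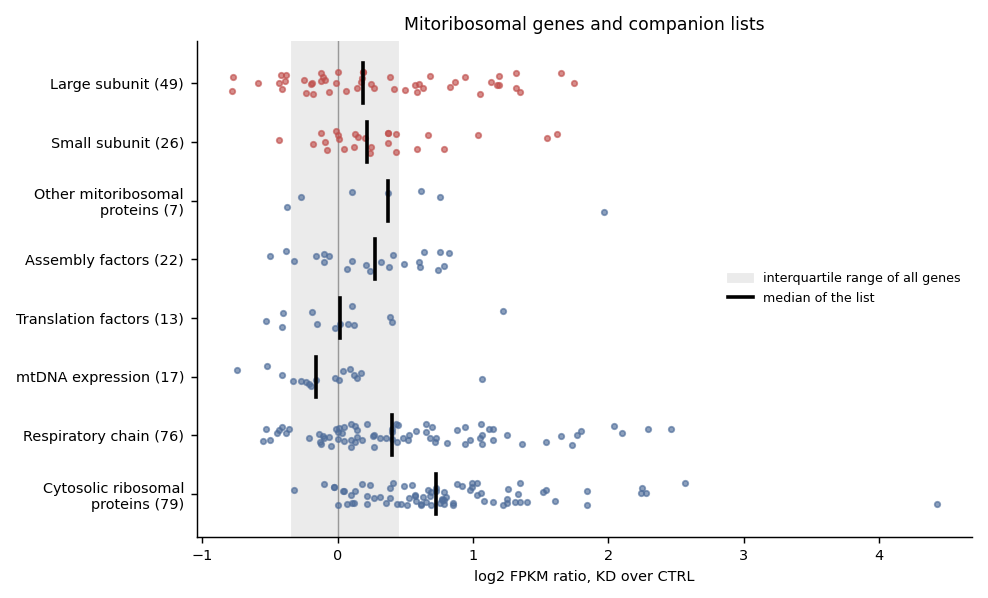
Log2 FPKM ratios (KD over CTRL) for the 49 large-subunit and 26 small-subunit members (red) and for the companion lists (blue), each point a gene past the filter, with vertical scatter for legibility. Black bars are list medians, from -0.16 for mitochondrial DNA expression to 0.73 for the cytosolic ribosomal proteins, and the grey band is the interquartile range of all genes, -0.34 to 0.45.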

How the data were processed

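Libraries came from 3 αCP1/2 siRNA pools and 3 control siRNA pools of K562 cells. Per the labels, the authors mapped reads with TopHat (1.4.1) to hg19 and ran Cuffdiff (2.2.0). The deposited table holds 1 FPKM value per gene and group, and the deposited estimated counts likewise are 1 value per group. How the libraries were combined is not given in the sources used here. The authors' own columns of fold change, p-value and FDR, and their columns of group averages, were not used. Columns are called by their labels, since the siRNA targets did not follow them.

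The planned linear models need values for single libraries and were not run. A gene entered the comparisons where its FPKM averaged 1 or more over the columns (13741 genes), its log2 ratio used a pseudocount of 1, and limits of 0.5 and 1 were read against the share of all genes past them. Estimated counts were rounded, and the ratio of their shares of the column totals was given an exact binomial 95% interval. As an alternative, a quadratic fit on GC content and log2 length (GENCODE release 44, GRCh37) was subtracted. Of the gene identifiers, 54488 were matched to it by ID and 432 more by symbol. GC content, length and gene coordinates come from it. Promoters came from RefSeq on GRCh38.p14.

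Named are the 8 highest and 5 lowest members by mean FPKM, the 8 highest and 8 lowest ratios, all past 1, the MRPS18 genes and a few others for their background, and for each companion list the highest, the lowest and the 2 largest ratios. The members and lists were chosen with earlier results of these data known. The functions were tested on simulated data. Calculations used scipy 1.17.1, pandas 2.3.3 and numpy 2.4.6 under Python 3.11.15, with matplotlib 3.10.9 for plots. Some genes that this rule or the marker lists would name are not reported here. Other experiments of the study were not analysed here.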

Additional observations from a re-analysis of the deposited data

How the results depend on the processing

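No replicate could be left out, since the table holds 1 value per group. No paired analysis was possible because the columns carry no replicate. On the scale of count shares, 10 members were at -0.5 or less, 7 at 1 or more and 1 at -1 or less. There the median log2 ratio was -0.03 for all members and -0.03 for the small subunit, 0.53 for the cytosolic ribosomal proteins and -0.46 for the mitochondrial DNA genes, and PCBP1 was at -0.25 and PCBP2 at 0.37. With the GC and length trend removed, 8 members were at 1 or more, PCBP1 was at -0.18 and PCBP2 at 0.72. Among 55 single genes, 2 of those past 0.5 changed sign: AURKAIP1 was at -0.36 with the trend removed and MALSU1 at -0.45 by count share. The cause was not tested. By count share, 41 of the 55 values moved by more than counting error and 13 did not. With the trend removed, 36 moved and 18 did not. Under the other alternatives, which change little at these levels, none moved. An alternative chosen after seeing the data kept only the 30 members alone in their locus. Of these 30, 12 were at 0.5 or more and 7 at 1 or more, against 24 and 13 of all 76 members. Over all genes past the filter 22.6% and 8.51% were, and the shares among all genes alone in their locus were not computed. A pseudocount of 0.1, no filter, an FPKM over 5, centring on the median, summed rows of a symbol and levels as counts per annotated kilobase moved none of the counts by over 1.5 times and no median beyond its order-statistic interval. Depth limits the members with few counts, such as MRPL23 with 74 in the CTRL column. Single values per group limit all of them.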
